A study of Rattus norvegicus with 12 samples.

Results

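The non-fibrillar collagen chains are the collagen genes whose products build sheets, networks and fibril coats rather than the banded fibrils of connective tissue. They were taken here as every gene named Col, a number, a and a number in either of the 2 deposited tables, after leaving out the chains of types I, II, III, V and XI. The rule found 34 gene symbols carried by 35 gene IDs, out of 20400 gene IDs in the series. The chains Col24a1 and Col27a1 are usually counted among the fibrillar collagens and were kept because the rule did not leave them out. Of the classical chains of these classes, Col4a3 and Col21a1 have no row in either table, and Col26a1 and Col28a1 have a row in only 1.

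The series holds RNA sequencing of 12 libraries from wild-type rat bone marrow cells, in 4 groups of 3. BMSC-C are untreated bone marrow mesenchymal stem cells, and BMSC-CT are such cells after 1 week with CTGF (connective tissue growth factor) and a following treatment with transforming growth factor TGF-β1. BF-C and BF-D are cells that the labels call fibrotic BMSCs or induced fibrotic chondrocytes, BF-C without a drug and BF-D with docetaxel, a taxane that stabilises microtubules. All groups grew in low-glucose DMEM with a chondrogenic induction medium. How the BF cells were made, and the docetaxel dose and time, are not given in the sources used here. Whether libraries of a group came from separate cultures or animals is not given either. The p-values therefore set group differences against the variation between these libraries, and may not reach beyond them. In bulk samples, fewer cells of a type and less RNA per cell cannot be told apart.

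Collagens are trimers of chains with long glycine repeats, and the classes differ in what they assemble into. Type IV chains pair in fixed combinations, mostly Col4a1 with Col4a2, into the mesh of basement membranes, where types VII, XV and XVIII anchor or link the sheet. Types VIII and X form lattices, the FACIT chains (fibril-associated collagens with interrupted triple helices, types IX, XII, XIV, XVI and others) sit on the surface of fibrils, type VI makes beaded microfilaments around cells, and types XIII, XVII, XXIII and XXV span the plasma membrane. In cartilage, type IX coats the type II fibrils, type X marks hypertrophic chondrocytes, and type VI surrounds each chondrocyte.

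The start regions of 4 members are shown. The first overlaps the start region of another chain, and the other 3 are examples from the genes that rose or fell in a comparison. The RefSeq table for the rat build GRCr8 gave a promoter, from 250 bases before to 50 after the start of the gene, for 28 of the 34 symbols. Col4a1 and Col4a2 lie head to head, with start sites 77 bases apart, so their windows overlap. In the window of Col4a1, at chr16:84885347-84885646 on the plus strand, the 176 bases in capitals are also in the window of Col4a2 on the other strand:

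Col4a1: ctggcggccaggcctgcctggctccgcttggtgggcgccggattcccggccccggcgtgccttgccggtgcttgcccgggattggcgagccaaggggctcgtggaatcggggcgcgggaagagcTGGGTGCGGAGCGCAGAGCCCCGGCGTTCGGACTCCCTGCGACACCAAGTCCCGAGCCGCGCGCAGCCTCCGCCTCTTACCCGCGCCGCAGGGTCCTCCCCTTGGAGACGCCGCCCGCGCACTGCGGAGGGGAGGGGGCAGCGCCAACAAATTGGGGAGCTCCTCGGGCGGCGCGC

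Col6a1 lies at chr20:11905440-11905739 on the plus strand, Col8a1 at chr11:56246532-56246831 on the plus strand and Col13a1 at chr20:30466751-30467050 on the minus strand. Capitals mark matches on either strand to GGGCGG (the GC box), CAGAC (the core of the SMAD element, the site class bound by the factors downstream of TGF-β receptors) or TATAAA (the TATA box):

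Col6a1: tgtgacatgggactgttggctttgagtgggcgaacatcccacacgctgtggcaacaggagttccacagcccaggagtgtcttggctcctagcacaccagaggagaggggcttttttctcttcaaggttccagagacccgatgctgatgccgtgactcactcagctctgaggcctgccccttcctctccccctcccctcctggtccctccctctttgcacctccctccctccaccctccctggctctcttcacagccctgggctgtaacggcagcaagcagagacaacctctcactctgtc

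Col8a1: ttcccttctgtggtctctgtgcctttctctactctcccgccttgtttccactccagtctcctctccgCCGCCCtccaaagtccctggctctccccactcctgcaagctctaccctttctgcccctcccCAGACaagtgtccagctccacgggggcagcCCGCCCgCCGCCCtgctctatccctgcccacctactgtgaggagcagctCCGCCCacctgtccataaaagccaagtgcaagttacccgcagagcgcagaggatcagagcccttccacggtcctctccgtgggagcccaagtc

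Col13a1: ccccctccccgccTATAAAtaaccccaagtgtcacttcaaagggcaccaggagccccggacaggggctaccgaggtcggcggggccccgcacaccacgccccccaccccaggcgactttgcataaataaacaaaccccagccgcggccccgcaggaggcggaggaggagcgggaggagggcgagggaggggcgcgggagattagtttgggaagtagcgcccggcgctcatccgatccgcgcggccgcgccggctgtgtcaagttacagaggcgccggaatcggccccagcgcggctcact

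The Col6a1 window held none of the motifs, that of Col8a1 held 4 GC boxes and 1 CAGAC, and that of Col13a1 held 1 TATAAA. Of the windows not shown, that of Col16a1 held 2 GC boxes, and that of Col27a1 held 2 GC boxes and 1 CAGAC. Both genes fell in BMSC-CT. Col6a2, Col12a1 and Col22a1, which also moved, had no promoter in the table. The 28 members had 31 promoters in the table. Of these 15 held GGGCGG, which 33.1% of all 33469 promoters hold, and 11 held CAGAC, against 50.1% of all. The longer SMAD form CAGACA, which contains CAGAC, was in 5 member promoters, that of Col8a1 among them, against 21.1% of all. TATAAA was in 3 against 14.2%. A match describes these letters only, and its absence says nothing about a factor.

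A pair of libraries stood apart from their own groups, and results that rest on them are given with and without them. Library totals ran from 15580310 to 19870047 reads. In BMSC-CT replicate 3, 14621 genes had a read against at least 16100 in every other library, and ribosomal protein genes held 15.5% of reads against at most 6.64% in the other BMSC libraries. Its deviation from its group went with gene length (Spearman's rho of -0.40 across genes, which are not independent), and of the 27 members tested 20 lay below the mean of the group's other libraries, 11 of them by more than 1 on the log2 scale. BF-D replicate 2 had 2.89% of its reads on ribosomal protein genes, where no other BF library passed 1.85%, a rho of -0.36 with length, and 24 of 32 members below the mean of the other BF-D libraries. The part of RNA quality in any result was not tested.

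All 10 listed markers of mesenchymal stem cells had reads in every group, with a summed level of 4642 to 5382 reads per 1000000 (RPM) in BMSC-C, 1163 to 2875 in BMSC-CT and 6171 to 6797 in the BF libraries. Of 10 chondrocyte markers, Col2a1, Matn1 and Cnmd have no row in the BMSC table and Acan and Cnmd have none in the BF table, and the sum of those listed did not exceed 16.5 RPM in any library. The 15 macrophage markers all had rows in the BMSC table and summed to 8281 to 9849 RPM in BMSC-C and 9793 to 12799 in BMSC-CT, led by Lyz2 and Adgre1. In BF cells 11 of them had rows, C1qa, C1qb, C1qc and Cd163 had none, and the sum was 40.0 to 43.3 in BF-C and 55.5 to 62.5 in BF-D. In the BMSC comparison 3 macrophage markers rose and 3 fell, and 1 mesenchymal marker (Eng) rose and 3 fell, Cxcl12, Pdgfra and Thy1. Without BMSC-CT replicate 3 these were 5 and 9 for macrophage markers and 1 and 5 for mesenchymal markers. Over all genes tested 7.7% rose and 10.9% fell, and 19.5% and 23.5% without that library. Their part in the collagen results was not tested.

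A few chains carried most of the non-fibrillar collagen RNA in every group. Levels that are compared between genes or between tables are RPKM values (reads per kilobase of deposited gene length per 1000000 reads of the library), and because each table was normalised separately they carry no test between BMSC and BF cells. The 4 members with the highest level in a library made up 71.6% to 91.1% of the summed level of all members. In BMSC-C, Col12a1, a FACIT chain of dense connective tissue, had the highest level (403 ± 61.1 RPKM, SD, n = 3), followed by Col4a2 (268 ± 21.7), Col4a1 (196 ± 13.1) and Col8a1 (193 ± 26.0). The levels of Col4a1 and Col8a1 differed by less than their spread. In BMSC-CT the order began with Col4a2 (138 ± 108) and Col4a1 (133 ± 61.8), whose spread exceeds their difference, with Col12a1 at 29.3 ± 16.5 and Col6a2 at 24.9 ± 1.34. In BF-C the order was Col12a1 (935 ± 21.3), Col4a1 (625 ± 5.29), Col4a2 (594 ± 6.08) and Col8a1 (293 ± 4.64), with no overlap between neighbours. BF-D had the same 4 chains in front, Col12a1 at 743 ± 238, Col4a1 at 626 ± 49.7, Col4a2 at 533 ± 88.4 and Col8a1 at 254 ± 50.7, and the spread of the leading 3 overlapped.

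Of the chains of types IX and X, Col10a1, Col9a1 and Col9a3 were near 0 in these libraries despite the chondrogenic medium. They had at most 8.73 normalised counts in any library. Col9a2, the other chain of type IX, had more, with normalised counts of 36.9 to 63.3 in the BMSC libraries and 435 to 624 in the BF libraries. Normalised counts are reads divided by 1 size factor per library, and the BMSC and BF values of a gene are on separate scales.

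**Figure D1:**
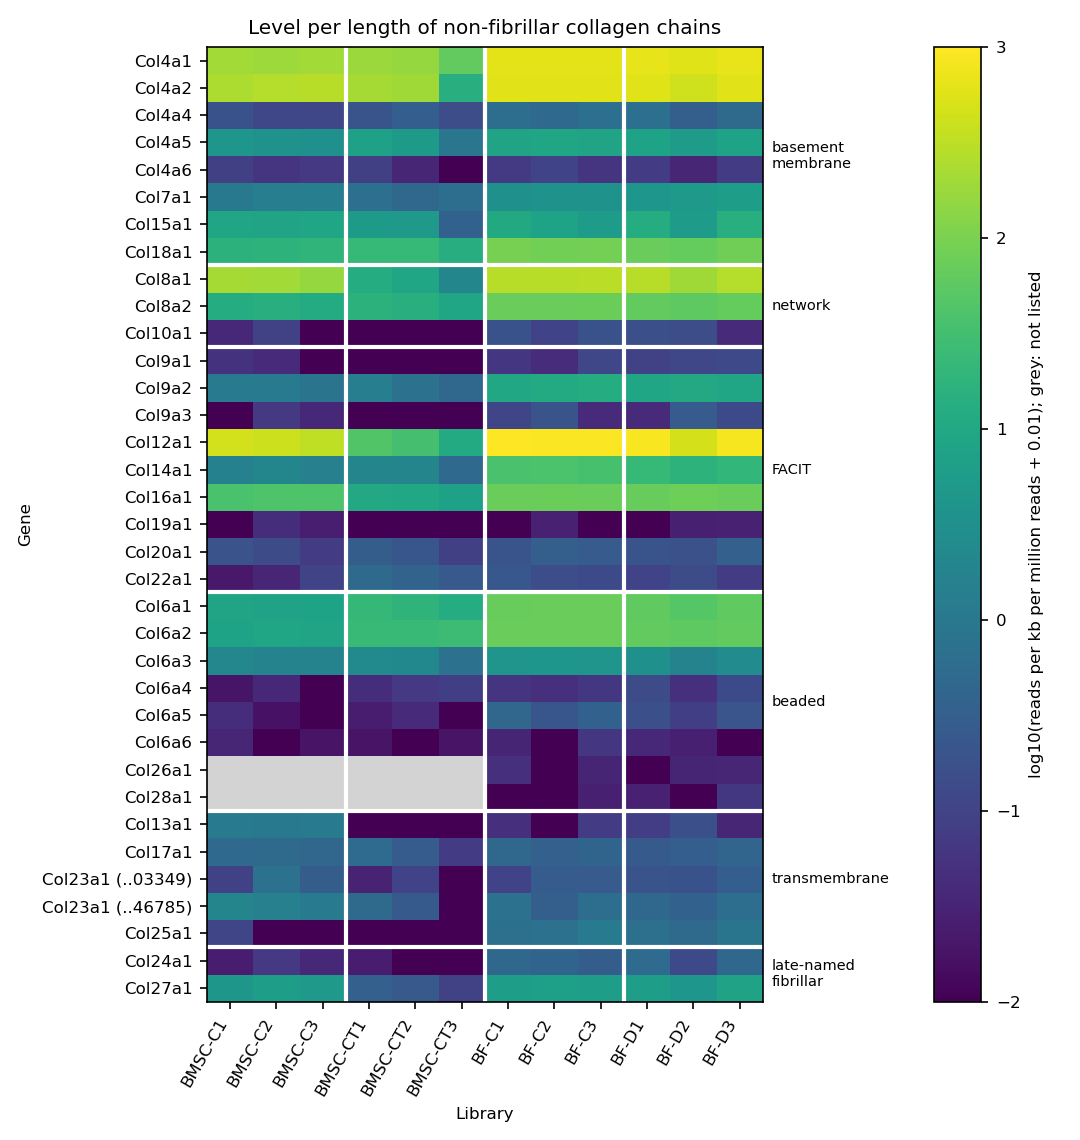
Level of each non-fibrillar collagen chain (rows, by class) in each library (columns), as log10 of RPKM plus 0.01; grey cells have no row in that table. Col12a1, Col4a1, Col4a2 and Col8a1 are bright in BMSC-C and the BF groups, Col8a1 and Col12a1 are darker in BMSC-CT, and BMSC-CT replicate 3 is darker than the other BMSC-CT libraries for Col4a2 and Col15a1.

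The comparison of BMSC-CT with BMSC-C asks how CTGF followed by TGF-β1 changed the cells. Among the chains tested, the type VI chains Col6a1 and Col6a2 and the FACIT chain Col22a1 rose, while the network chain Col8a1, the FACIT chains Col12a1 and Col16a1, the transmembrane chain Col13a1 and Col27a1 fell. Of 33 member rows in this table, 27 passed the filter of a mean normalised count of at least 1. By limma on log2(normalised count + 1), with Benjamini-Hochberg adjustment over all 16818 genes tested and a threshold of 0.05, 3 members were higher in BMSC-CT, 5 lower and 19 passed in neither direction. Over all genes tested 7.7% were higher and 10.9% lower. The members' median log2 fold change was -0.28, against -0.15 over all genes. Leaving out BMSC-CT replicate 3 brought it to -0.05. Removing from each library, before the fit, the trend of its deviations over gene length brought it to 0.40. The 6 rows under the filter were Col6a6, Col9a1, Col9a3, Col10a1, Col19a1 and Col25a1.

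Without BMSC-CT replicate 3, 7 members were higher and 8 lower, against 19.5% and 23.5% of all genes, so members and genes in general both gained calls. The added members were Col4a5, Col6a3, Col8a2 and Col18a1 among those higher, and Col7a1, Col15a1 and 1 of the 2 gene IDs named Col23a1 (ENSRNOG00000046785) among those lower. On the 6 libraries, all BMSC-CT values lay above all BMSC-C values in 7 tested members and below them in 8, and the groups overlapped in 12. Over all genes tested 23.3% lay wholly above and 28.9% wholly below. Across test methods, edgeR's quasi-likelihood test on the recovered reads gave 3 higher and 5 lower (all genes 8.05% and 9.51%), and DESeq2 gave 4 and 6 (16.9% and 16.9%). With quantile normalisation 5 were higher and 5 lower (11.5% and 10.7%). With the length trend removed, 8 were higher and 4 lower (12.5% and 10.7%).

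The type VI chains Col6a1 and Col6a2 form the obligate core of the type VI trimer together with a larger chain such as Col6a3. Col6a1 had normalised counts of 367, 335 and 374 in BMSC-C and 1077, 952 and 1079 in BMSC-CT. The groups were well apart and each was tight. Its log2 fold change was 1.53 ± 0.19 (SE), with a limma adjusted p of 0.00385.

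Col6a2 had 431, 461 and 460 in BMSC-C and 1471, 1500 and 2693 in BMSC-CT. Every BMSC-CT library was above every BMSC-C library, with replicate 3 highest. The log2 fold change was 2.0 ± 0.28 (limma adjusted p 0.00639), and 1.72 without that library. Col6a3, the third chain of the trimer, did not follow in all libraries (331, 277 and 286 against 441, 403 and 221, log2 fold change 0.19 ± 0.32, limma adjusted p 0.665). Replicate 3 of BMSC-CT was the lowest library of all for Col6a3, and without it the value was 0.50 (limma adjusted p 0.0363). The values of Col6a3 by library were chosen for print after they were seen, and the deposited table gives its biotype as a processed transcript. Col6a4 and Col6a5 had few reads and passed in neither direction in limma with 6 libraries. Col6a4 had 0.813, 2.54 and 0 in BMSC-C and 3.62, 6.33 and 12.9 in BMSC-CT, without overlap. Its log2 fold change was 2.07 ± 0.69 (limma adjusted p 0.0782), and it passed with quantile normalisation (2.63, limma adjusted p 0.0402).

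Among the FACIT chains, Col12a1 had the largest level of any member in BMSC-C. Its normalised counts were 71091, 62525 and 54676 in BMSC-C and 7342, 6107 and 3293 in BMSC-CT. The groups were far apart, with BMSC-CT replicate 3 lowest. Col12a1 fell by 3.56 ± 0.34 on the log2 scale, with a limma adjusted p of 0.00181. With the length trend removed the value was -2.59.

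Col16a1, a FACIT chain that binds integrins and sits near fibrils and microfibrils, had 2862, 3227 and 3374 in BMSC-C and 880, 874 and 1074 in BMSC-CT. The groups did not overlap, and here replicate 3 was the highest BMSC-CT library. Col16a1 fell by 1.74 ± 0.19 on the log2 scale (limma adjusted p 0.00253), but with the length trend removed it fell by 1.08 and the adjusted p was 0.0887.

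Col22a1, a FACIT chain of tissue junctions such as the myotendinous junction, moved the other way from a very low level. It had 0.813, 1.69 and 6.93 normalised counts in BMSC-C and 39.8, 31.7 and 32.2 in BMSC-CT. Even the highest BMSC-C library was below the lowest BMSC-CT library. Col22a1 rose by 3.39 ± 0.63 on the log2 scale (limma adjusted p 0.0165), and by 4.01 with the length trend removed, 4.03 with quantile normalisation and 4.0 without BMSC-C replicate 3. The adjusted p was 0.0734 without BMSC-C replicate 1, 0.0871 without BMSC-C replicate 2 and 0.0587 without BMSC-CT replicate 2. Col9a2, Col14a1 and Col20a1 passed in neither direction, with log2 fold changes of 0.05, -0.05 and 0.86.

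The network chain Col8a1, a partner of Col8a2 in the type VIII lattice known from endothelial and vessel wall matrix, had 13486, 12638 and 10829 normalised counts in BMSC-C and 851, 645 and 232 in BMSC-CT. All BMSC-CT libraries were far below BMSC-C. It fell by 4.60 ± 0.48 on the log2 scale (limma adjusted p 0.00225), and by 4.05 without BMSC-CT replicate 3.

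Its partner Col8a2 had 746, 834 and 764 in BMSC-C and 1083, 1043 and 995 in BMSC-CT, so the groups did not overlap. The log2 fold change of 0.41 ± 0.18 did not pass (limma adjusted p 0.135), and it did without replicate 3 (0.44, limma adjusted p 0.0271). Under scaling to total reads the value of Col8a2 was -0.0083.

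The transmembrane chain Col13a1, known from cell-matrix adhesions and the neuromuscular junction, was absent from the reads of every BMSC-CT library. It had 45.5, 39.8 and 48.5 normalised counts in BMSC-C and 0, 0 and 0 in BMSC-CT, and limma gave an adjusted p of 0.000825. Set against a floor of 3 reads over the BMSC-CT group, Col13a1 was at least 37.5-fold lower. The members' median log2 fold change stays at -0.28 with Col13a1 at that bound.

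Of the other transmembrane chains, Col17a1 and both gene IDs named Col23a1 did not pass in limma with 6 libraries. Their log2 fold changes were -0.73 ± 0.61 for Col17a1, -2.45 ± 0.92 for ENSRNOG00000003349 and -2.71 ± 0.91 for ENSRNOG00000046785. The last passed in DESeq2 on the same libraries (-2.27, adjusted p 0.0197). Reads of a gene that carries 2 IDs may have been split between them, so each Col23a1 value is uncertain.

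Col27a1, a fibrillar-type chain of developing cartilage, had 352, 509 and 429 normalised counts in BMSC-C and 28.9, 23.2 and 12.9 in BMSC-CT. The lowest BMSC-C library was above the highest BMSC-CT library by a wide margin. Col27a1 fell by 4.30 ± 0.38 on the log2 scale (limma adjusted p 0.00146), and with the length trend removed the value was -3.60. Col24a1, its relative, had at most 3.38 normalised counts in any BMSC library.

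**Figure D2:**
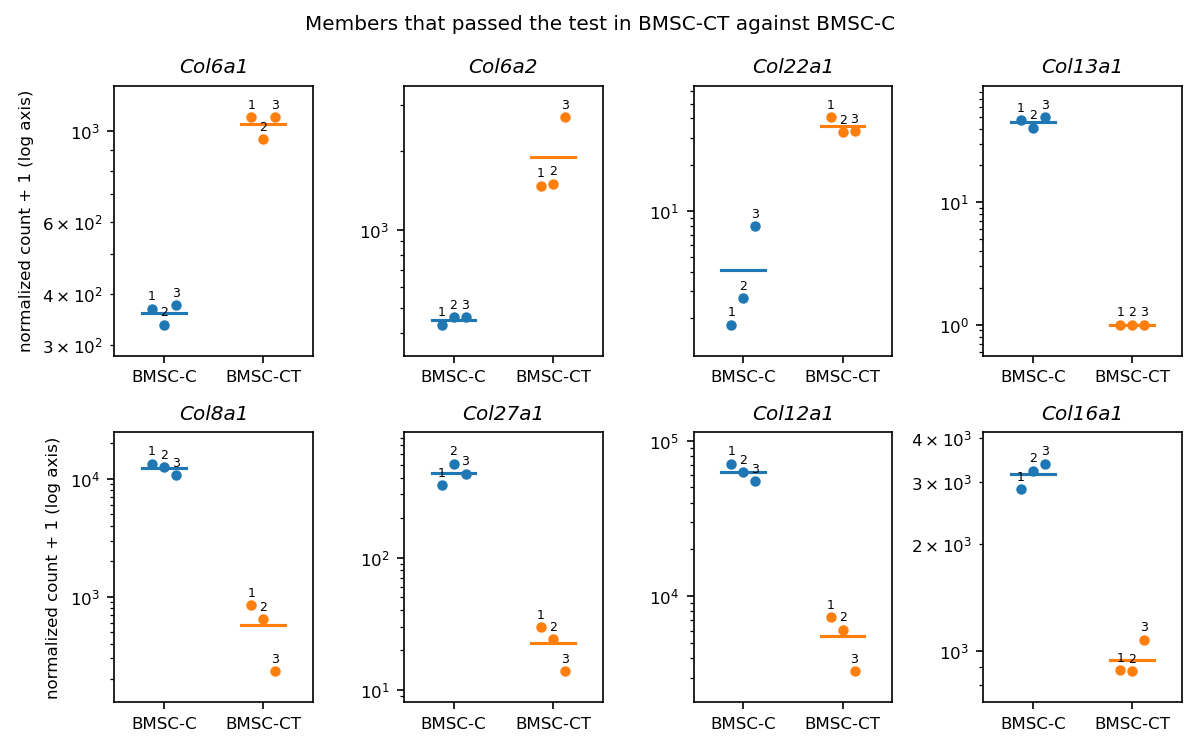
Normalised count plus 1 (log axis) of the 8 members that passed the limma test, in each of the 3 BMSC-C (blue) and 3 BMSC-CT (orange) libraries; points are libraries with their replicate number and lines are means of the plotted values. The groups do not overlap in any panel, and BMSC-CT replicate 3 is the lowest BMSC-CT library for Col8a1, Col12a1 and Col27a1 and the highest for Col6a2 and Col16a1.

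No basement membrane chain passed in either direction among the 8 tested in limma with 6 libraries. The abundant pair showed how much 1 library weighs. Col4a1 had 19360, 17208 and 20613 normalised counts in BMSC-C and 18430, 18376 and 11359 in BMSC-CT. Col4a2 had 17512, 19703 and 21384 in BMSC-C and 16574, 16353 and 1929 in BMSC-CT. In both genes BMSC-CT replicate 3 was the lowest library, and for Col4a2 it was far below the rest. The log2 fold change of Col4a1 was -0.28 ± 0.27 (limma adjusted p 0.451), and that of Col4a2 was -1.27 ± 0.83 (0.282). Without that library they were -0.05 and -0.24. The deposited gene model of Col4a2 spans 37.7% of the RefSeq model, and its level per length uses the deposited length.

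Col18a1, the source of endostatin, had 1211, 1233 and 1425 in BMSC-C and 1804, 1931 and 1825 in BMSC-CT. The groups did not overlap, yet with 6 libraries the log2 fold change of 0.53 ± 0.18 did not pass (limma adjusted p 0.079). It passed without replicate 3 (0.54, limma adjusted p 0.0144), in DESeq2 on the 6 libraries (0.52, adjusted p 0.0229) and with the length trend removed (1.17, limma adjusted p 0.0413). Under scaling to total reads the value of Col18a1 was 0.10. Col4a5, a chain of the minor type IV networks, had a log2 fold change of 0.23 ± 0.57, which was 0.91 without replicate 3 (limma adjusted p 0.00452), and -0.19 under scaling to total reads. Col7a1, the chain of anchoring fibrils, and Col15a1 had -0.66 ± 0.36 and -1.62 ± 0.82, which were -0.96 and -0.60 without replicate 3 (limma adjusted p 0.0127 and 0.0131). Col4a4 had 27.6, 16.9 and 17.3 in BMSC-C and 33.5, 55.9 and 43.5 in BMSC-CT, without overlap. Its log2 fold change was 1.07 ± 0.41 (limma adjusted p 0.107). Col4a4 passed with quantile normalisation (1.62, limma adjusted p 0.0473) and with the length trend removed (2.05, limma adjusted p 0.0481).

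Ratios between partner chains, taken on the level per length within a library, do not depend on the size factors. Col4a1 over Col4a2 was 0.830, 0.656 and 0.724 in BMSC-C and 0.835, 0.843 and 4.42 in BMSC-CT, where replicate 3 alone was high. In the BF libraries it ran from 1.04 to 1.07 in BF-C and from 1.11 to 1.32 in BF-D. Col8a1 over Col8a2 was 17.5, 14.7 and 13.7 in BMSC-C and 0.761, 0.599 and 0.226 in BMSC-CT, so Col8a1 was above Col8a2 in every BMSC-C library and below it in every BMSC-CT library. In the BF groups it was 3.97 to 4.09 and 3.43 to 4.63. Col6a3 over Col6a1 was 0.253, 0.232 and 0.214 in BMSC-C and 0.115, 0.119 and 0.0574 in BMSC-CT, again without overlap. Col6a1 over Col6a2 was 0.871 to 1.02 in BMSC-C and 0.480 to 0.878 in BMSC-CT, with the lowest value in replicate 3. An exact permutation test of 3 against 3 cannot give a two-sided p below 0.1, so none is given for these ratios.

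The share of all collagen reads that came from non-fibrillar chains was 68.9% to 74.5% in BMSC-C and 13.5% to 22.3% in BMSC-CT. Of all reads, non-fibrillar chains held 0.761% to 0.886% in BMSC-C and 0.0909% to 0.322% in BMSC-CT, while fibrillar chains held 0.304% to 0.377% and 0.581% to 1.31%. These reads were not divided by gene length. Col12a1 alone had 87445, 73907 and 63096 reads in BMSC-C and 8120, 5787 and 2045 in BMSC-CT. The classes did not move alike. FACIT chains held 3822 to 5089 RPM in BMSC-C and 162 to 532 in BMSC-CT, and network chains 761 to 977 and 44.1 to 121. Basement membrane chains held 2688 to 2920 and 558 to 2377, and type VI chains 73.6 to 78.0 and 144 to 187. Of 8 fibrillar chains tested 4 rose and none fell (Col1a1, Col3a1, Col5a3 and Col11a1), 6 without replicate 3. The difference between the classes was not tested. In BF-C the non-fibrillar share was 24.5% to 25.3%, and in BF-D it was 22.8% to 27.2%.

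**Figure D3:**
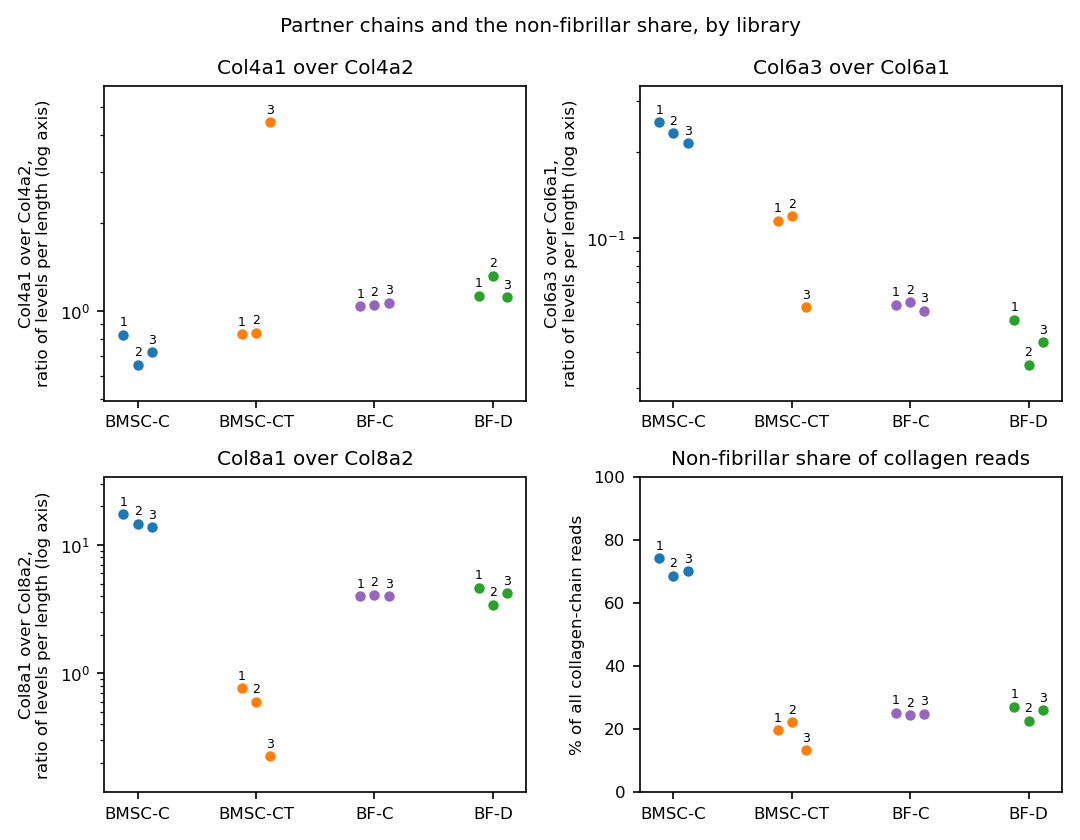
Ratios of levels per length between partner chains (log axes) and the percentage of collagen-chain reads from non-fibrillar chains, by group; each point is 1 library with its replicate number. Col4a1 over Col4a2 is 4.42 in BMSC-CT replicate 3 and at most 1.32 elsewhere, Col8a1 over Col8a2 is below 1 in all BMSC-CT libraries, and the non-fibrillar share is highest in BMSC-C.

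Partners of these chains were read from lists chosen with earlier results of these data known. Counts of the partner, receptor and marker lists are to be read against all genes tested. Of these 7.7% were higher and 10.9% lower, and 19.5% and 23.5% without replicate 3. Of 17 tested genes that build basement membranes with type IV collagen, 1 rose and 8 fell in BMSC-CT (3 and 11 without replicate 3), with a median log2 fold change of -1.59. The laminin chain Lamb2 rose (1.58 ± 0.18, limma adjusted p 0.00319), and nidogen Nid2 (-3.59 ± 0.44, 0.00394) and fibulin Fbln1 (-1.59 ± 0.24, 0.00824) fell. Nid2 links laminin to type IV collagen, and it had a mean of 2829 ± 97.4 normalised counts in BMSC-C and 263 ± 132 in BMSC-CT (SD, n = 3).

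Of 7 tested partners of type VI collagen, 1 rose and 1 fell. Cspg4, the proteoglycan NG2 and a cell surface binder of type VI collagen, rose (1.64 ± 0.20, limma adjusted p 0.00414). Decorin (Dcn), a small proteoglycan that binds type VI collagen and fibrils, fell by 1.80 ± 0.27 on the log2 scale (limma adjusted p 0.00769). Of 4 tested fibril surface partners, Prelp fell (-2.14 ± 0.34, limma adjusted p 0.00947). Without replicate 3 the counts were 2 higher and 3 lower for the type VI partners and 0 and 2 for the fibril surface partners.

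Collagen receptors split. Of 11 tested, 2 rose and 4 fell (2 and 6 without replicate 3). Itga11, the integrin chain that binds fibrillar collagen on mesenchymal cells, had 135, 104 and 108 normalised counts in BMSC-C and 2711, 2617 and 1155 in BMSC-CT (log2 fold change 4.12 ± 0.37, limma adjusted p 0.00153). Itga2, an alpha chain of a collagen receptor on epithelial cells and platelets, had 136, 94.8 and 106 in BMSC-C and 0, 3.17 and 0 in BMSC-CT (limma adjusted p 0.00257). The groups did not overlap in either gene. The discoidin domain receptor Ddr1 rose (1.26 ± 0.21, limma adjusted p 0.0115) and Itga3, mainly a laminin receptor, fell (-1.65 ± 0.29, limma adjusted p 0.0142).

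Markers of other cells moved too. Of 5 tested endothelial markers 2 fell, Flt1 and Tek, and their list summed to 18.6 to 22.5 RPM in BMSC-C and 1.62 to 3.45 in BMSC-CT. Of 5 tested pericyte and smooth muscle markers 2 fell, Mcam and Abcc9, with sums of 59.2 to 64.3 and 7.64 to 11.5. Of 3 tested epithelial markers Krt8 rose and Krt18 fell, with sums of 6.75 to 9.33 and 13.0 to 16.8. Among 6 tested hypertrophic chondrocyte markers Spp1 and Alpl rose and Runx2 fell. No chondrocyte marker of 5 tested passed. Pecam1, Emcn and Erg (endothelial), Rgs5 (pericyte) and Epcam, Krt5, Krt14 and Krt19 (epithelial) have no row in this table. Without BMSC-CT replicate 3, 0 endothelial markers rose and 2 fell, 0 pericyte markers rose and 3 fell, and 2 epithelial markers rose and 1 fell. The part of these cells in the fall of Col8a1 and Col13a1 was not tested.

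The comparison of BF-D with BF-C asks what docetaxel did to the fibrotic cells. No member passed the test. Of 35 member rows 32 passed the filter, and limma called 0 members higher and 0 lower, against 0.00586% of 17076 genes in each direction. Before adjustment, 1 member was higher and 7 were lower at p under 0.05, where all genes gave 3.26% and 2.94%. edgeR also called 0 and 0 (all genes 0.00586% in each direction), and DESeq2 called 0 higher and 1 lower (0.256% and 0.228%). With the length trend removed the counts were 0 and 1 (0.041% and 0.0234%). The rows under the filter were Col19a1, Col26a1 and Col28a1.

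The log2 fold change was below 0 in 25 of 32, with a median of -0.27 against -0.0044 over all genes. All BF-D libraries lay below all BF-C libraries in 11 members and above them in 1, where all genes gave 9.04% and 7.78%, and 20 overlapped. The median was -0.08 when BF-D replicate 2 was left out and -0.13 with the length trend removed. Without that library 1 of 33 tested members was higher and 6 lower by limma, against 0.729% and 0.811% of all genes. Some markers of other cells were higher in the same libraries, with no call by limma on 6 libraries. The macrophage list summed to 40.0 to 43.3 RPM in BF-C and 55.5 to 62.5 in BF-D. The pericyte and smooth muscle list summed to 56.6 to 65.9 and 76.9 to 91.0. The endothelial sums (4.48 to 6.92 and 3.28 to 7.38) and epithelial sums (2.73 to 3.42 and 2.57 to 3.22) overlapped. Without BF-D replicate 2, limma called 2 macrophage markers and 1 pericyte and smooth muscle marker higher, and 0 lower. The part of these cells in the members' values was not tested.

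Col14a1, a FACIT chain on the fibrils of skin and tendon, is described by library because of its values. It had 3320, 3470 and 3146 normalised counts in BF-C and 2035, 1533 and 1802 in BF-D. Every BF-D library was below every BF-C library. The log2 fold change was -0.90 ± 0.12, with an unadjusted limma p of 6.28e-05 and an adjusted p of 0.215. Without BF-D replicate 2 it was -0.79 (limma adjusted p 2.99e-05), and DESeq2 on all 6 libraries gave an adjusted p of 1.74e-06. In the authors' deposited table the log2 fold change of Col14a1 is -0.89 with an adjusted p of 1.69e-06. The unadjusted p-values deposited there matched those of DESeq2 in 100% of genes compared, so this is not a separate test. In BMSC-CT against BMSC-C, Col14a1 had -0.05 ± 0.39.

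Of the type VI chains, Col6a1 had 3512, 3658 and 3693 in BF-C and 3128, 2415 and 3074 in BF-D, and Col6a2 had 4555, 4520 and 4512 against 3904, 3516 and 3819. Neither pair of groups overlapped. The log2 fold changes were -0.34 ± 0.11 and -0.28 ± 0.08, and limma gave an adjusted p of 0.706 for both. Without BF-D replicate 2 they were -0.22 and -0.23, with limma adjusted p of 0.0204 and 0.00911. Col6a3 had 732, 778 and 734 against 578, 311 and 473, and a log2 fold change of -0.76 ± 0.21 (limma adjusted p 0.706, and 0.009 without replicate 2). Col6a5, a chain that can take the place of Col6a3, had the lowest fold change of the tested members, with 59.3, 27.8 and 46.2 in BF-C and 20.2, 9.70 and 26.2 in BF-D. The groups did not overlap, and the log2 fold change of -1.24 ± 0.43 (limma adjusted p 0.706) was -0.85 without replicate 2.

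Col8a2 and Col18a1 showed shifts of like size. Col8a2 had 5182, 5015 and 5244 in BF-C and 4338, 3964 and 4539 in BF-D (log2 fold change -0.27 ± 0.08). Col18a1 had 7776, 7312 and 7479 against 6093, 5377 and 6778 (-0.31 ± 0.10). In both the groups did not overlap, the limma adjusted p was 0.706, and without BF-D replicate 2 it was 0.0216 and 0.0377. Col7a1 was the member with all BF-D libraries above BF-C, at 491, 548 and 548 against 652, 731 and 907 (0.52 ± 0.14, limma adjusted p 0.69, and 0.038 without replicate 2).

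The most abundant chains differed mainly in BF-D replicate 2. Col12a1 had 170722, 166498 and 161563 normalised counts in BF-C and 155950, 82216 and 152028 in BF-D, a log2 fold change of -0.41 ± 0.23 that was -0.11 without replicate 2. Col8a1 had 21221, 21183 and 21589 against 20758, 14030 and 19713, and Col4a2 had 49972, 49050 and 48636 against 46385, 35330 and 48596. In these 3 genes replicate 2 was the lowest library by far. Col4a1 was steady at 69029, 68693 and 69211 against 69684, 62102 and 72072 (-0.02 ± 0.10). Col16a1 was level too, at 6346, 6523 and 6345 against 6024, 6907 and 6270, with a standard error of 0.08. None of these 5 genes passed in limma.

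Col13a1 had at most 6.79 normalised counts in any BF library, and Col22a1 had 17.8, 11.7 and 9.83 in BF-C and 7.45, 10.7 and 5.24 in BF-D (-0.69 ± 0.40, limma adjusted p 0.706). Col27a1 had 574, 623 and 558 in BF-C and 594, 386 and 706 in BF-D, and the groups overlapped.

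**Figure D4:**
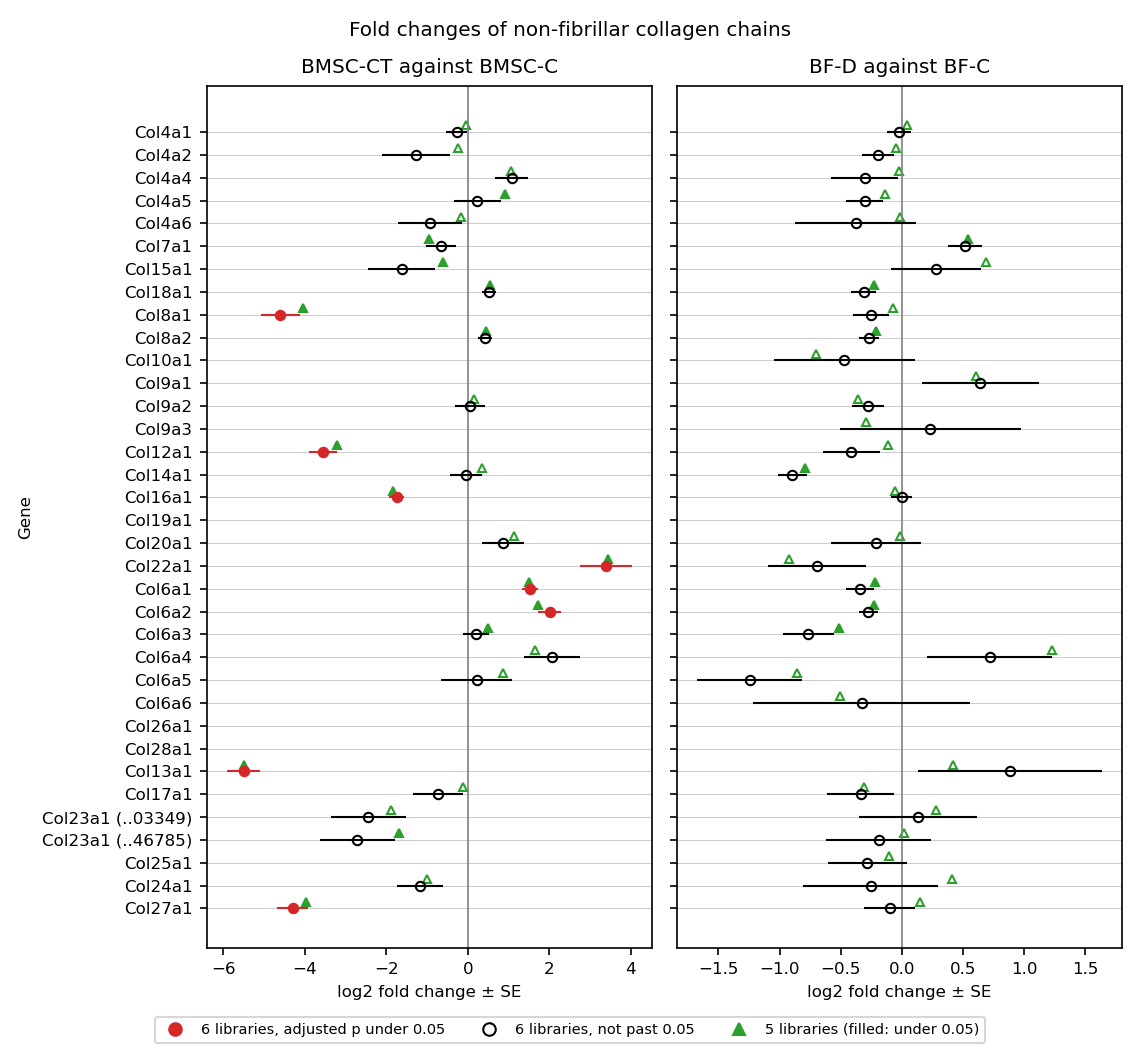
Log2 fold change (circles, with SE bars) of each tested member in BMSC-CT against BMSC-C and in BF-D against BF-C, filled red where the limma adjusted p was under 0.05; green triangles give the value without BMSC-CT replicate 3 or BF-D replicate 2, filled where it passed. In the left panel 3 members lie to the right and 5 to the left among those that passed, and in the right panel none passed with 6 libraries; the horizontal scales of the panels differ.

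Partners and receptors in the BF comparison gave no call by limma among 17 basement membrane, 8 type VI, 5 fibril surface and 11 receptor genes tested. Without BF-D replicate 2 they gave 1 higher and 1 lower, 0 and 0, 0 and 0, and 1 and 0. No fibrillar chain of 9 tested passed, and without that library 4 fell. Over all genes 0.729% were called higher and 0.811% lower without it. Of the marker lists, only the hypertrophic chondrocyte list held a call with 6 libraries, Spp1 (osteopontin), which rose from 1175 ± 68.5 to 2687 ± 320 normalised counts (SD, n = 3). Its log2 fold change was 1.19 ± 0.11, with a limma adjusted p of 0.0427. Spp1 was the gene behind the 1 call to higher values in this table, and no gene at all was called higher with the replicate block, with a filter at a mean of at least 10, or without BF-C replicate 1, 2 or 3 or BF-D replicate 1 or 3.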

How the data were processed

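Per the labels' protocols, RNA was extracted with the RNeasy kit and made into libraries with the NEBNext Ultra kit. The submitters' processing notes name Bowtie 0.12.2 and the mouse build mm8, while the deposited gene IDs are rat IDs. The build, annotation and strandedness behind the counts are not given in the sources used here, so no coordinates of the deposited files are printed. The 2 tables deposited by the authors hold normalised counts (a signal, reads divided by 1 size factor per library, each table scaled on its own), and also the authors' own fold changes on the log2 scale with p-values. In every library 100% of values were whole multiples of 1 read (tolerance 0.01), and 0 columns of values lacked a sample.

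Within each table, every gene whose mean normalised count reached 1 was fitted on the scale log2(normalised count + 1) with limma 3.58.1 (R 4.3.3), with a trend and no block, adjusted by Benjamini-Hochberg over all genes and called under 0.05. Rows without a gene name held 0.641% to 1.55% of reads and were kept under their IDs. edgeR 4.0.16 and DESeq2 1.42.0 on the recovered reads, other scalings, filters and pseudocounts, removal of the length trend, a replicate block and leaving out each library were the alternatives. Levels per length used the deposited gene length. Fold changes are on the log2(normalised count + 1) scale, which understates the change of low genes. The code was tested on simulated data with planted changes. In the BMSC comparison the main setting recovered 1 gene out of 67 when the planted fold was 2. At a fold of 4 it recovered 14 out of 67, and at a fold of 16 it recovered 59 out of 66, with 5 false calls. For the BF comparison the recovered genes numbered 39, 62 and 65, with 10 false calls. The absence of a call, mainly in the BMSC comparison, therefore does not show that a gene stayed level.

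Replicate numbers are not stated to mark a shared culture. Deviations of same-numbered libraries correlated at 0.199, -0.0209 and 0.183 in the BMSC table and at 0.0140, 0.0196 and -0.00285 in the BF table. Differently numbered libraries gave -0.225 to 0.0891 in the BMSC table and -0.0348 to 0.0277 in the BF table. Whether same-numbered libraries share a source was not tested.

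The members and gene lists were chosen with earlier results of these data known. Values in every library are printed for each member called in a comparison and for the 8 members with the highest level per length in any group, and up to 4 called genes with the smallest adjusted p are named per list. A gene that this rule would name is not reported here. Other genes were named after their values were seen. Promoters come from RefSeq, build GRCr8. No protein sequence was used.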

Additional observations from a re-analysis of the deposited data

How the results depend on the processing

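For BMSC-CT against BMSC-C, the count of members higher was 3 with all libraries, 5 with quantile normalisation and 8 with the length trend removed, and it ranged from 2 to 7 when 1 library was left out. The count lower was 5, and 5 to 8 with 1 library left out. Over all genes, leaving out 1 library gave 249 to 3269 calls higher and 487 to 3935 lower. Member counts are to be read against these. Leaving out BMSC-CT replicate 3 gave 7 and 8. For BF-D against BF-C, the count higher was 0, and 0 to 1 with 1 library left out. The count lower was 0, 1 with DESeq2 and 1 with the length trend removed. With 1 library left out it was 0 to 6, where 6 was without BF-D replicate 2. Over all genes, leaving out 1 library gave 0 to 125 calls higher and 0 to 139 lower. The cause of these moves was not tested. The 8 members called in BMSC-CT kept their direction under each alternative run. Over 12 alternatives (edgeR, DESeq2, the length trend, the block, quantile and total-read scaling, and each library left out), the sign of the fold change turned in 8 of 27 tested members for BMSC-CT and in 10 of 32 for BF-D, none of them called with all libraries. For example, Col4a5 was -0.19 under total-read scaling and ranged from -0.18 to 0.91 with 1 library left out (-0.18 without BMSC-CT replicate 1, -0.03 without replicate 2), Col7a1 was 0.25 with the length trend removed, where Col4a1 was 0.51 and Col14a1 was 0.63, and under total-read scaling Col8a2 was -0.0083, Col6a3 was -0.23 and Col9a2 was -0.36. In BF-D, Col27a1 was 0.15 without BF-D replicate 2. Over all genes the median log2 fold change was -0.15, and -0.53 under total-read scaling, 0.08 with quantile normalisation and 0.03 with the length trend removed, so under total-read scaling fold changes are to be read against -0.53. With the replicate block the counts were 3 higher and 5 lower for BMSC-CT, and 0 and 0 for BF-D. Over all genes the block gave 1315 and 1688 calls, against 1295 and 1839 without it.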
